A study of Xenopus tropicalis with 45 samples.

Results

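The genes *gata4*, *gata5* and *gata6* were followed in early gastrulae of *X. tropicalis*, in RNA-seq libraries of dissected explants and in the ChIP-seq peak lists of the same study. They were taken by symbol and are 3 of the 28850 genes in the expression files, and all 3 passed the filter on low counts in both RNA-seq experiments. The RNA-seq data are 16 libraries of wildtype animal cap (AC, presumptive ectoderm) or vegetal mass (VG, presumptive endoderm) explants. Whole embryos were immersed from the 4-cell stage in 100 nM trichostatin A (TSA), an inhibitor of many histone deacetylases, or in its solvent DMSO, and in a separate experiment in 10 mM valproic acid (VPA), an inhibitor of Class I histone deacetylases, or in water. Explants were cut at the late blastula and cultured to the early gastrula (st10.5), and each of the 8 groups has 2 biological replicates, with 16892304 to 54350327 counts per library. The peak lists are of Hdac1 in untreated whole embryos at st8, st9 and st10.5, of Hdac1 with DMSO or 100 nM TSA and of Hdac2 (st9 and st10.5), of Sox3 (st9), and of acetylated histone H3 (pan-H3Kac) at st10.5 in untreated whole embryos and in AC and VG explants treated with DMSO.

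Gata4, Gata5 and Gata6 are zinc finger transcription factors that bind the sequence GATA. In the *Xenopus* embryo their genes are switched on in the vegetal cells downstream of the maternal T-box factor VegT and of Nodal signals, and their products act with the Sox17 and Mix families to establish the endoderm. The same factors later serve in heart and gut formation across vertebrates. Hdac1 and Hdac2 are the catalytic subunits of complexes that remove acetyl groups from histones, and acetylated H3 is a mark of active chromatin.

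In the v10.0 assembly (RefSeq annotation), *gata4* spans chr5:150613881-150680058 with 4 transcripts, *gata5* spans chr10:4876409-5029430 with 4 transcripts, and *gata6* spans chr6:108765750-108790907 with 2 transcripts. Most of the lower part of the *gata5* span, up to 76.9 kb from its lower end, is shared with the lncRNA LOC116408023, and the lncRNA LOC116408022 and the microRNA genes mir1a-2 and mir133c also lie within it. The lncRNA LOC116411483 ends 126 bp below the lower end of *gata6*. The annotation used here gives no strand and no exons, so positions are given in kb from the lower end of each span, and neither promoters nor exons were assigned.

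All 3 genes were vegetal. In the DMSO controls *gata4* stood at 660.0 and 642 TPM (a level scaled by transcript length and library size) in the VG libraries against 1.16 and 2.49 TPM in the AC libraries. With water it stood at 1002 and 883 TPM in VG against 0.97 and 1.01 TPM in AC. The transcript of *gata5* was at 61.0 and 76.1 TPM in VG with DMSO and at 0.98 and 1.15 TPM in AC. With water, *gata5* was at 161 and 83.1 TPM in VG and at 1.93 and 1.59 TPM in AC, so that its VG replicates differed more from each other than those of *gata4*. The transcript of *gata6* was at 192 and 177 TPM in VG with DMSO and at 8.92 and 10.1 TPM in AC. With water, *gata6* was at 366 and 276 TPM in VG and at 9.07 and 8.71 TPM in AC. No AC library reached the level of any VG library for any of the 3 genes.

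In CPM (counts scaled to library size, here with TMM factors), *gata4* was 238-fold lower in AC than in VG with DMSO (log2 fold change −7.90 ± 0.46 SE, n = 2 per group, adjusted p = 0.000189, edgeR's quasi-likelihood test with Benjamini-Hochberg adjustment) and 738-fold lower with water. The difference was smaller for *gata5*, at 48.7-fold with DMSO and 69.2-fold with water. It was smallest for *gata6*, at 15.98-fold with DMSO and 32.3-fold with water. A gene was called where the fold change exceeded 2 and the adjusted p was below 0.05. All 3 genes were called lower in AC in both controls, where 12.1% (DMSO) and 8.89% (water) of all tested genes were called lower in AC. They were also called lower in AC with TSA (10.6% of tested genes) and with VPA (7.5% of tested genes), by 174-fold and 517-fold for *gata4*, 19.5-fold and 23.3-fold for *gata5*, and 4.31-fold and 5.47-fold for *gata6*. The largest adjusted p among these 12 tests was 0.0112, for *gata5* with VPA, and it rose to 0.0671 (log2 fold change −3.94) when the second AC VPA library was left out. The log2 fold change of *gata5* with VPA was −4.54 and became −5.52 or −3.94 without the first or the second AC VPA library, and −3.43 or −5.17 without the first or the second VG VPA library. That of *gata5* with water moved from −6.11 to −5.47 without the first VG water library, and with TSA from −4.28 to −5.04 without the second AC TSA library. That of *gata4* moved from −7.90 to −8.72 without the second AC DMSO library, and with VPA from −9.01 to −9.75 without the second AC VPA library. No fold of *gata6* between the explants moved by more than 1.5 times.

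The make-up of the family differed between the explants. In VG, *gata4* held 65.5% to 84.5% of the summed TPM of the 3 genes and *gata6* 12.9% to 24.0%, over 8 libraries. In AC, *gata6* held 73.5% to 91.7% and *gata4* 2.84% to 18.1%, over 8 libraries. The share of *gata5* was 2.57% to 10.6% in VG and 2.33% to 16.1% in AC, and these ranges overlap. The order of the levels in VG was thus *gata4*, *gata6*, *gata5* in every library, whereas in AC *gata6* stood highest in every library. Below it, *gata4* was above *gata5* in the 4 AC libraries of the TSA experiment and below it in 3 of the 4 of the VPA experiment, at levels of 0.56 to 3.81 TPM. The effective length that RSEM estimated for *gata4* ran from 1666 to 2923 bases among the AC libraries, so its few counts there give less certain TPM. The ratio of *gata6* to *gata4* was 4.06 to 31.1 in AC and 0.153 to 0.366 in VG. Within VG, the share of *gata4* was 71.7% and 72.3% with DMSO, 83.6% and 84.5% with TSA, 65.5% and 71.1% with water, and 75.5% and 82.0% with VPA, above both controls in all 4 treated libraries. The levels of the TSA and VPA experiments were set side by side here without a test between them.

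**Figure D1:**
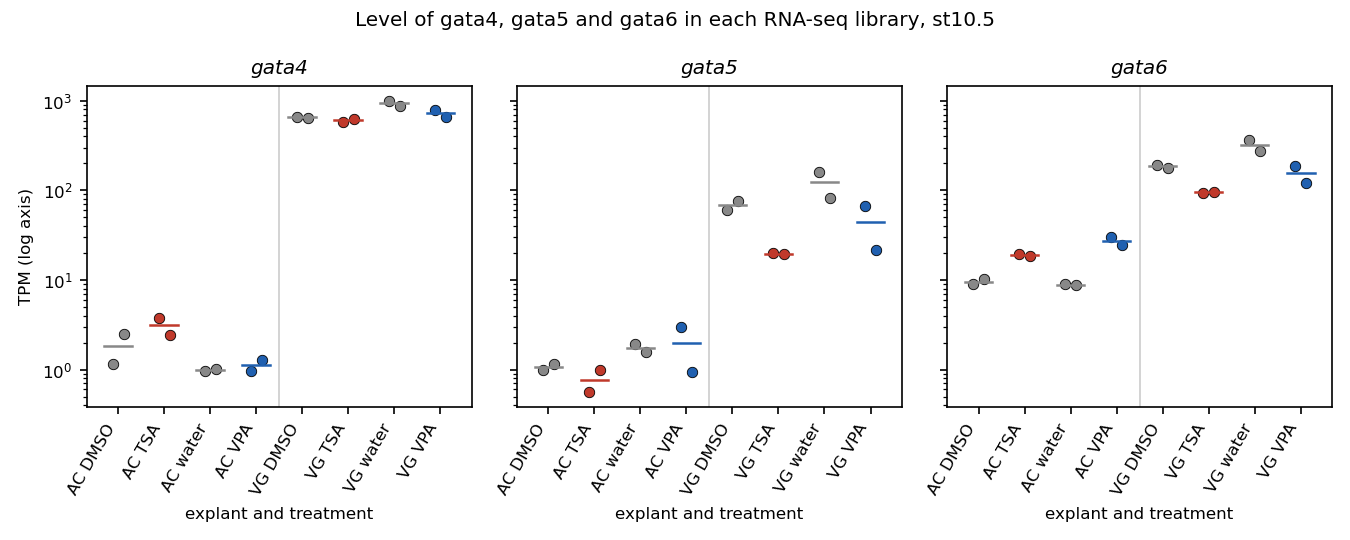
TPM of *gata4*, *gata5* and *gata6* (log axis) in each of the 16 RNA-seq libraries by explant and treatment; points are the 2 replicates of a group, lines their mean, grey the controls, red TSA and blue VPA. Each gene is higher in every VG than in every AC library, and *gata6* alone has both treated AC libraries above both controls with each inhibitor.

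In AC, only *gata6* had treated libraries that did not overlap their controls. The normalized CPM of *gata6* was 15.2 and 22.6 with DMSO and 32.4 and 38.2 with TSA. In the other experiment it was 22.5 and 19.2 with water and 58.2 and 49.5 with VPA. Both treated libraries lay above both controls with either inhibitor, which with 2 libraries per group can occur without an effect. How many of all genes were separated in this way was not counted. Of all tested genes, 88.8% (TSA) and 92% (VPA) had a lower fitted log2 change in AC than *gata6*. The fitted change of *gata6* in AC was 1.87-fold with TSA (log2 0.90 ± 0.23 SE, 95% interval 0.36 to 1.44) and 2.58-fold with VPA (log2 1.37 ± 0.29 SE, 95% interval 0.69 to 2.05). Neither was called by edgeR's quasi-likelihood test with Benjamini-Hochberg adjustment (adjusted p = 0.112 with TSA and 0.067 with VPA), in comparisons that called 2.3% and 2.1% of all tested genes. The VPA change of *gata6* was called in 6 of its 16 alternative analyses, among them the Wald test of DESeq2 (adjusted p = 0.000536), with adjusted p from 0.000536 to 0.283 over all 16. The TSA change was called in none of its 17, where the adjusted p ran from 0.00151 to 0.44 and the fold change stayed at or below the threshold whenever the adjusted p was under 0.05.

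The other members were low in AC in all groups. The counts of *gata4* were 35 and 141 with DMSO, 89 and 115 with TSA, 34 and 23 with water, and 20 and 56 with VPA. Treated and control libraries overlapped, and the fitted log2 changes were 0.29 (95% interval −0.58 to 1.17) with TSA and −0.04 (95% interval −1.06 to 0.98) with VPA. The 2 second replicates of the TSA experiment in AC held 35.0% (DMSO) and 39.4% (TSA) of their counts in ribosomal RNA genes, against at most 4.38% in the other 14 libraries. Without these libraries the log2 change of *gata4* with TSA in AC was 1.19 and that of *gata6* 1.06, and neither was called. That fit keeps a single AC library per treatment. Here and below, a call lost in it does not show that a change rested on the libraries left out. The counts of *gata5* were 21 and 50 with DMSO, 12 and 41 with TSA, 39 and 36 with water, and 68 and 28 with VPA. These groups overlapped too, with log2 changes of −0.51 (95% interval −1.46 to 0.44) with TSA and −0.01 (95% interval −1.89 to 1.87) with VPA. At these counts a change of 2-fold in *gata5* in either direction was not detectable with VPA.

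In VG, all 3 genes were lower in both treated libraries than in both controls, with each inhibitor. How many of all genes were separated in this way was not counted. With 2 libraries per group such separation can occur without an effect. The 95% intervals of *gata4* with both inhibitors and of *gata5* with VPA, given below, include 0. The share of tested genes with a lower log2 change in VG was 20.7% (TSA) and 10.2% (VPA) for *gata4*. It was 2.23% and 2.85% for *gata5*, and 4.93% and 4.25% for *gata6*. The fitted change was largest for *gata5*. Its normalized CPM was 49.1 and 59.8 with DMSO and 15.97 and 14.6 with TSA, 3.56-fold lower (log2 −1.83 ± 0.37 SE, 95% interval −2.70 to −0.97). It was 173 and 81.0 with water and 65.5 and 19.6 with VPA, 2.98-fold lower (log2 −1.58 ± 0.68 SE, 95% interval −3.19 to 0.04). The replicates of the VPA experiment were far apart in both groups for *gata5*, and the log2 change ran from −2.69 to −0.94 as single libraries were left out. The study lists *gata5* among genes lower in VG with both TSA and VPA, chosen from these same libraries. The direction here is thus not independent evidence. For its calls the study used edgeR with the same thresholds as here, and it does not state how libraries were grouped in the fit. The fit here, with 4 groups per experiment, called *gata5* in VG with neither inhibitor, and the source of this disagreement was not tested.

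The normalized CPM of *gata6* in VG was 322 and 283 with DMSO and 152 and 152 with TSA, 1.99-fold lower (log2 −0.99 ± 0.23 SE, unadjusted p = 0.0033 and adjusted p = 0.333 in edgeR). It was 805 and 543 with water and 363 and 226 with VPA, 2.29-fold lower (log2 −1.19 ± 0.28 SE, unadjusted p = 0.00393 in edgeR). The level of *gata4* was 662 and 599.6 CPM with DMSO and 540 and 587 CPM with TSA, a log2 change of −0.16 (95% interval −0.96 to 0.64). It was 1144 and 921 CPM with water and 773 and 632 CPM with VPA, a log2 change of −0.56 (95% interval −1.30 to 0.19).

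None of these 6 changes in VG was called in the quasi-likelihood fit, in which almost no gene was. Only 0.0131% of tested genes (2 of 15232) were called with TSA in VG and 0% (0 of 15166) with VPA. At an unadjusted p under 0.05 in edgeR, 629 (4.13%) and 1340 (8.84%) of tested genes passed. The TSA share is no larger than that threshold lets through without any effect. The Wald test of DESeq2 called 202 (1.33%) and 359 (2.51%) genes. That test also called *gata5* lower with TSA (adjusted p = 0.000298) and *gata6* lower with VPA (adjusted p = 0.00625). The adjusted p of *gata5* with TSA was 0.251 in edgeR and ran from 0.000298 to 1 over its alternatives, while its log2 change ran from −1.97 to −1.69. The adjusted p of *gata6* with VPA was 0.232 in edgeR and ran from 0.00625 to 0.772.

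The fitted change of *gata6* ran in opposite directions in the explants, with the 4 treated AC libraries above and the 4 treated VG libraries below their controls. The difference of the log2 effects, AC minus VG, was 1.89 (95% interval 1.13 to 2.65, adjusted p = 0.173, edgeR) with TSA and 2.56 (95% interval 1.61 to 3.51, adjusted p = 0.377, edgeR) with VPA. It was called by neither fit, where 0.0853% and 0.00659% of tested genes were called, and it was called by DESeq2 for both inhibitors (adjusted p = 0.000345 and 6.01e-06), which called 1.6% and 1.01% of all tested genes. For *gata5* the same difference was 1.32 (95% interval 0.05 to 2.60) with TSA and 1.57 (95% interval −0.90 to 4.04) with VPA. For *gata4* it was 0.46 and 0.51, and both intervals include 0. The same contrast can be read from the AC to VG folds of *gata6* above, 15.98-fold with DMSO against 4.31-fold with TSA and 32.3-fold with water against 5.47-fold with VPA.

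**Figure D2:**
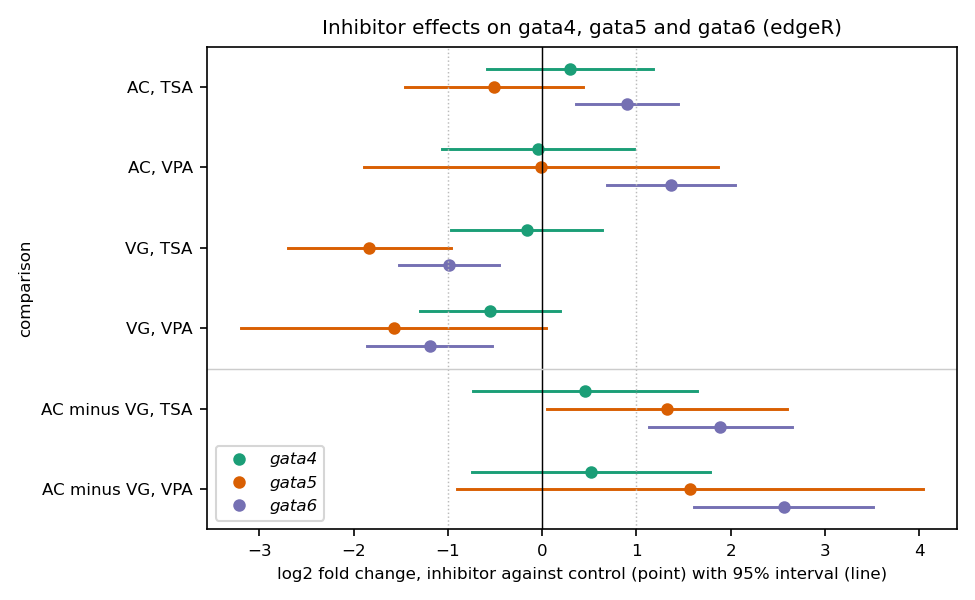
Log2 fold changes of inhibitor against control (points) with 95% intervals (lines) for the 3 genes in AC and VG, and the difference of the effects between explants, from edgeR fits with 2 libraries per group; dotted lines mark a change of 2-fold. The intervals of *gata6* lie above 0 in AC and below 0 in VG with both inhibitors, and those of *gata4* include 0 in every comparison.

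Other regulators of the endoderm were compared in the same fits, from a list of 19 genes of which 15 were in the files and tested. With TSA in AC, 3 of the 15 were called higher (1.29% of all tested genes) and none lower. These were *sox17a*, the Sox factor at the core of endoderm specification (log2 5.12, adjusted p = 0.00111, edgeR), *foxa4*, a forkhead factor of the organizer and endoderm (log2 3.31, adjusted p = 0.0477, edgeR), and *hhex*, a homeobox gene of the anterior endoderm (log2 2.63, adjusted p = 0.023, edgeR). In TPM, *sox17a* rose from 3.30 and 2.59 with DMSO to 136 and 85.8 with TSA, while *gata6* stood at 8.92 and 10.1 with DMSO and at 19.6 and 18.7 with TSA. Levels of *foxa4* went from 3.15 and 1.57 TPM to 41.9 and 9.37 TPM. Those of *hhex* stayed low, from 0.48 and 0.88 TPM to 5.30 and 4.49 TPM, against 164 and 250 TPM in VG with DMSO. With VPA in AC, 1 of the 15 was called higher (1.36% of all tested genes), the homeobox gene *mixer* (log2 1.397, adjusted p = 0.035, edgeR). Its AC levels were low, at 0.97 and 1.42 TPM with water and 3.39 and 3.76 TPM with VPA. In VG with water it stood at 1733 and 1965 TPM. The median log2 change over the 15 genes was 1.49 with TSA and 1.74 with VPA in AC, against 0.00 and 0.01 over all genes tested. Without the 2 AC libraries rich in ribosomal RNA, only *sox17a* was still called with TSA and the median was 2.53, and with any single library left out 1 or 2 genes were called with TSA. The call of *mixer* with VPA was lost whichever library was left out, and *sox17a* was called without the second AC VPA library. DESeq2, which called 6.37% of all tested genes with TSA and 6.05% with VPA, called 7 of the 15 higher with each. The changes of *gata6* in AC, 0.90 and 1.37, lay below both medians, and those of *gata4* and *gata5* were at most 0.29.

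In VG the medians of the list were below 0. By edgeR 1 of the 15 was called lower with TSA, not when any single library was left out, and none with VPA. DESeq2, which called 1.33% (TSA) and 2.51% (VPA) of all tested genes in either direction, called 2 lower with TSA, and 3 lower and 1 higher with VPA. The medians were −0.33 with TSA and −0.42 with VPA, against −0.01 and 0.00 over all genes. The log2 changes of *gata5* (−1.83 and −1.58) and *gata6* (−0.99 and −1.19) were more negative than these medians. Those of *foxa2*, a pioneer factor of the endoderm, were −1.53 and −2.21. The main edgeR fit did not call *foxa2* in VG. DESeq2 called it lower with VPA, as did edgeR with no filter and with a replicate block. A replicate block within each tissue called it lower with both inhibitors. The study lists *foxa2*, like *gata5*, among genes lower in VG, chosen from these same libraries.

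**Figure D3:**
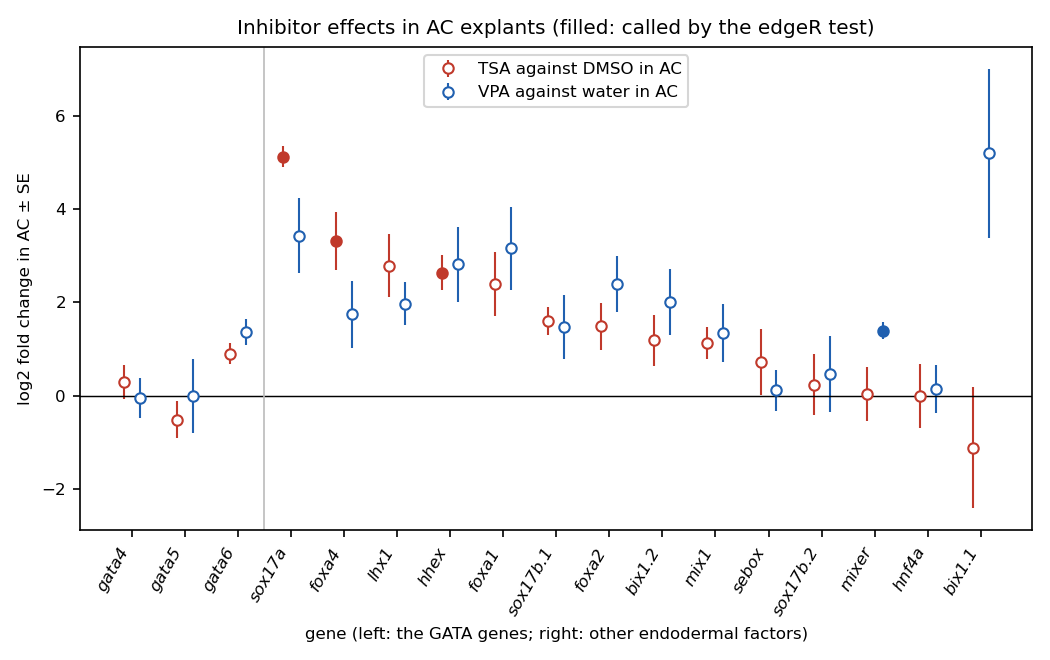
Log2 fold change ± SE in AC explants with TSA (red) and VPA (blue), edgeR fits with 2 libraries per group, for the 3 GATA genes (left of the line) and 14 of the 15 other endodermal transcription factors tested (right); filled points were called. *sox17a*, *foxa4* and *hhex* were called with TSA and *mixer* with VPA, and none of the GATA genes was.

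Other GATA factors and their partners were compared too. Of 9 listed genes for other GATA factors and their cofactors, 7 passed the filter. In AC, 1 was called lower (of all tested genes 1% with TSA and 0.745% with VPA were) and 1 higher (1.29% and 1.36%) with each inhibitor. The gene called lower was *gata2*, a ventral and ectodermal GATA factor (log2 −6.21 with TSA and −6.46 with VPA, adjusted p = 0.00111 and 0.00216, edgeR). In TPM, *gata2* stood at 124 and 94.7 with DMSO and at 1.76 and 1.39 with TSA in AC. Its level was higher in VG, at 367 and 321 TPM with DMSO. With water it was at 248 and 319 TPM in VG against 56.1 and 72.4 TPM in AC. The gene called higher was *tal1*, a partner of GATA factors in blood (log2 4.101 and 3.31, adjusted p = 0.00756 and 0.0358, edgeR). Without the 2 AC libraries rich in ribosomal RNA neither was called with TSA, in a fit with a single AC library per treatment. In the libraries kept, *gata2* stood at 124 TPM with DMSO and 1.76 TPM with TSA, and *tal1* at 0.68 and 17.2 TPM. The call of *tal1* with VPA was lost when any single library was left out. None of the 7 was called in VG by edgeR, while DESeq2 called *tal1* higher there with both inhibitors and *gata2* lower with TSA. Of all tested genes DESeq2 called 1.33% with TSA and 2.51% with VPA in VG, in either direction.

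Of the signals upstream, 13 of 16 listed Nodal and T-box genes were in the files and tested. By edgeR only *nodal*, which encodes a ligand of the pathway, was called in AC, higher with TSA as were 1.29% of all tested genes (log2 2.05, adjusted p = 0.0248, edgeR), from 0.19 and 0.13 TPM to 0.83 and 0.60 TPM, against 162 and 172 TPM in VG with DMSO. These AC levels rest on 3 to 18 counts, and *nodal* was not called when any single library was left out. None of the 13 was called with VPA or in VG in this fit. DESeq2 called *nodal* and *eomes*, a T-box gene, with TSA in AC, and 1 gene higher in AC and 1 in VG with VPA. With the replicate number as a block, edgeR called *vegt* in AC and *nodal* in VG with VPA. The genes *eomes* and *vegt* are named here after their values were seen. Of 12 listed cardiac genes, a tissue in which the family also serves, 7 were tested with TSA and 8 with VPA. By edgeR only *hand2*, a basic helix-loop-helix factor of heart and limb, was called, with TSA in AC, higher as were 1.29% of all tested genes (log2 4.51, adjusted p = 0.0146, edgeR), and not without the 2 AC libraries rich in ribosomal RNA. In TPM it stood at 4.11 and 2.58 with DMSO and at 129 and 41.6 with TSA in AC. In VG it stood at 2.79 and 3.11 with water and at 96.7 and 34.1 with VPA. DESeq2 called *hand2* higher in all 4 comparisons. It also called 1 gene of the list lower with TSA in AC and in VG, and with VPA in AC 2 further genes higher and 1 lower. Of all tested genes DESeq2 called, in either direction, 6.37% with TSA and 6.05% with VPA in AC, and 1.33% and 2.51% in VG.

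Marker sums of other tissues differed with the treatments, and their part in the *gata6* values was not tested. The summed TPM of 13 AC markers was 3025 to 4307 with DMSO and 938 to 1644 with TSA in AC, and 3248 to 3879 with water and 1512 to 1716 with VPA. The sum of 12 VG markers, most of which are also on the endodermal list, was 112 to 114 with DMSO and 249 to 486 with TSA in AC, 45.7 to 70.3 with water and 129 to 323 with VPA, against 5263 to 7666 in VG. In AC, 1 of the 12 was at 0 in both water libraries and none was at 0 in both libraries of another group. The sum of 10 mesoderm markers was 22.2 to 31.6 with DMSO and 161 to 258 with TSA in AC, and 12.1 to 18.8 with water and 66.7 to 213 with VPA. In VG this sum was higher, at 754 to 1106 with DMSO and 887.5 to 1037 with water. This sum thus does not tell mesoderm from vegetal cells here. Its members differed: of 9 tested, edgeR called 3 lower in AC than in VG with DMSO and 5 with water, and none higher. Of all tested genes 12.1% and 8.89% were called lower. The 7 germ plasm markers, RNAs stored at the vegetal pole, summed to 118 to 154 TPM with DMSO and 143 to 168 TPM with TSA in AC, against 9385 to 11530 TPM in VG with DMSO, and none of the 7 was called with TSA by edgeR, while DESeq2 called *pgat* higher. With water and VPA they summed to 144 to 147 and 183 to 189 TPM in AC, and *pgat* was called higher (log2 2.03, adjusted p = 0.0443, edgeR), a call lost whichever library was left out. By edgeR 5 of 12 AC markers were called lower with TSA and 5 of 13 with VPA in AC (1% and 0.745% of all tested genes). With 1 library left out 0 to 2 were called with each inhibitor, none was with TSA without the 2 AC libraries rich in ribosomal RNA, and DESeq2 called 11 and 8. Of all tested genes DESeq2 called 6.37% with TSA and 6.05% with VPA in AC, in either direction. By edgeR 2 of 9 mesoderm markers were called higher with each inhibitor (1.29% of all tested genes with TSA and 1.36% with VPA) and 1 lower with TSA (1%). Without the libraries rich in ribosomal RNA 1 was called higher with TSA, with 1 library left out 1 or 2 were with TSA and 0 or 1 with VPA, and DESeq2 called 4 higher with each inhibitor and 1 lower with TSA. In such bulk samples fewer cells of a type and less RNA per cell cannot be told apart.

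The genes whose levels were most like those of each member were sought over the 16 libraries among 14548 genes by Pearson's r of log2 CPM. For *gata4* these included *mogat1* (0.992) and LOC100496812 (0.990). For *gata5* they were LOC100495742 (0.978), MGC69520 (0.965) and *klf6* (0.964). For *gata6* they were *efnb2* (0.978), LOC108644833 (0.975) and *foxa2* (0.972). Among the members, *gata5* and *gata6* were most alike (0.955), and *gata4* was less like either (0.927 with each). Libraries of 2 tissues and 2 experiments enter these values, so the AC to VG difference makes up most of each.

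Hdac1 was listed at each of the 3 loci. Within 10 kb of the gene spans, counted by summit, the peaks of untreated embryos near *gata4* numbered 2, 3 and 10 from st8 through st9 to st10.5. For *gata5* there were 1, 3 and 6, and for *gata6* 0, 0 and 6. At st10.5 as many peaks as near *gata4* were near 0.584% of 21749 protein-coding genes, and as many as near *gata5* or *gata6* near 3.07%, while the median gene had 1. Long spans hold more peaks by their length alone. Per 10 kb, *gata4* had 1.16 peaks, *gata5* 0.347 and *gata6* 1.33, and 4.14%, 28.3% and 3.03% of protein-coding genes were at least as dense. The lists grew between stages from 1340 through 5136 to 22681 peaks over the whole genome, and they give no read counts, which leaves the depth of each peak unknown.

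Inside *gata4*, peaks stood 19.2 kb and 27.9 kb from its lower end, at chr5:150633091 and chr5:150641780 at st10.5. The fold enrichment over input at 27.9 kb was 10.6 at st9 and 19.0 at st10.5, where it ranked 20 of 22681 peaks. The site at 19.2 kb was listed from st8 on, with fold enrichments of 7.46 at st8, 18.1 at st9 (rank 22 of 5136) and 13.1 at st10.5 (rank 407). A site at 23.6 kb was listed at st8 (8.43) and st9 (5.71), and not at st10.5 in untreated embryos. Hdac2 was listed at both main sites, with fold enrichments of 16.04 and 20.04 at st9 and of 31.6 and 36.0 at st10.5. The Hdac2 lists are single-library lists and passed no replicate filter. Sox3, a maternal and ectodermal Sox factor, was listed there too, with combined scores of 111 at 19.2 kb (rank 105 of 15695) and 83.5 at 27.9 kb (rank 467). These scores have no fixed unit and are not fold enrichments.

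In *gata5* the recurrent Hdac1 sites lay 20.7, 25.5 and 36.9 kb from the lower end, inside the stretch that it shares with LOC116408023. The site at 25.5 kb was the only one of the gene listed at st8 (6.16). The site at 36.9 kb had a fold enrichment of 6.62 at st9 and 13.2 at st10.5 (rank 379 of 22681), and Sox3 was listed there (score 16.1) and at 20.7 kb (score 25.5). Near *gata6* the peaks lay mostly below the span. In the replicate-filtered list of untreated embryos at st9 the only Hdac1 peak was 15.8 kb below it (8.07), outside the 10 kb used for counting, while the single-library st9 lists held 8 (DMSO) and 9 (TSA) Hdac1 peaks within 10 kb. The peak at 15.8 kb was still listed at st10.5 (10.4), with Hdac2 (16.1) and Sox3 (score 47.4). At st10.5 a further peak stood 3.05 kb below the span (10.1).

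With TSA, Hdac1 was still listed at the main sites. These lists come from 1 library per treatment and stage, so they allow no test and no error. At st10.5 the fold enrichment at 27.9 kb of *gata4* was 45.5 with DMSO and 34.9 with TSA, and at 19.2 kb it was 29.4 and 21.8. At 36.9 kb of *gata5* it was 30.5 with DMSO and 40.4 with TSA, and at 15.8 kb below *gata6* it was 14.9 and 22.2. The direction of the difference thus was not the same at the 3 loci. The number of peaks within 10 kb of the 3 genes was 48 with DMSO and 46 with TSA at st9, and 56 and 62 at st10.5, against whole lists of 45185 and 49023, and of 62985 and 74097.

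Acetylated H3 at these loci was listed mostly in VG. In the AC list *gata4* had 0 peaks, *gata5* 2 and *gata6* 2 within 10 kb, and in the VG list they had 11, 18 and 1. The median protein-coding gene had 1 in each list, and 57.1% had any in AC and 54.3% any in VG. Peaks of these lists were present in both replicates of an explant. Counting peaks hid the width of the *gata6* peak in VG, which covered 25911 bp from 21.7 kb below the lower end of the gene to 4.2 kb above it (chr6:108744083-108769993), with a fold enrichment of 25.0 at its summit (rank 84 of 24535). The 2 AC peaks of *gata6* lay at 0.27 and 1.3 kb inside the span and were 649 and 697 bp wide, with fold enrichments of 3.49 and 6.48.

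Measured as the length under peaks in the span and 10 kb on each side, *gata4* had 17.5 kb of acetylated H3 in VG (20.3% of the window) and 0 kb in AC. The values of *gata5* were 20.7 kb (11.97%) in VG and 1.64 kb (0.95%) in AC, and those of *gata6* 14.2 kb (31.5%) in VG and 1.35 kb (2.98%) in AC. The AC lengths of *gata5* and *gata6* were above the median of protein-coding genes, 618 bp. At least as much was found in AC at 28.9% and 34.6% of these genes. The excess of VG over AC was at least as large in 0.354% of protein-coding genes for *gata4*, 0.239% for *gata5* and 0.851% for *gata6*, and its median over all of them was 0 bp. These ranks are of bp not scaled to the window, which was 86.2 kb for *gata4*, 173 kb for *gata5* and 45.2 kb for *gata6*. Longer windows can hold more by their length alone. Of the 2 AC peaks of *gata5*, the larger (fold enrichment 12.5) lay 154.7 kb from the lower end, beyond the span and next to the start coordinate of the neighbour *slco4a1* at 155.0 kb. The other lay at 37.3 kb (5.56), beside the Hdac1 site at 36.9 kb.

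In *gata4* the highest VG acetylation peaks had their summits at 27.3 kb (fold enrichment 19.97) and 30.1 kb (17.8), and one at 18.7 kb (13.2). The peak at 18.7 kb overlapped the Hdac1 peak at 19.2 kb, and that at 27.3 kb the Hdac1 peak at 27.9 kb. In *gata5* the highest was at 29.4 kb (18.8). Of the 22 Hdac1 peaks near the 3 genes at st10.5, 16 overlapped an acetylation peak of VG by at least 1 bp and 2 overlapped one of AC. Over all 22681 Hdac1 peaks of that stage these shares were 41.0% for VG and 51.1% for AC. By gene, 6 of 10 peaks near *gata4*, 5 of 6 near *gata5* and 5 of 6 near *gata6* overlapped a VG peak, against 0, 1 and 1 for AC. The 5 near *gata6* all lay in its 1 broad VG peak, so they are not separate overlaps. Wide peaks also overlap more by their width alone. The Hdac1 lists are of whole embryos, so the explant in which Hdac1 was bound was not measured.

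**Figure D4:**
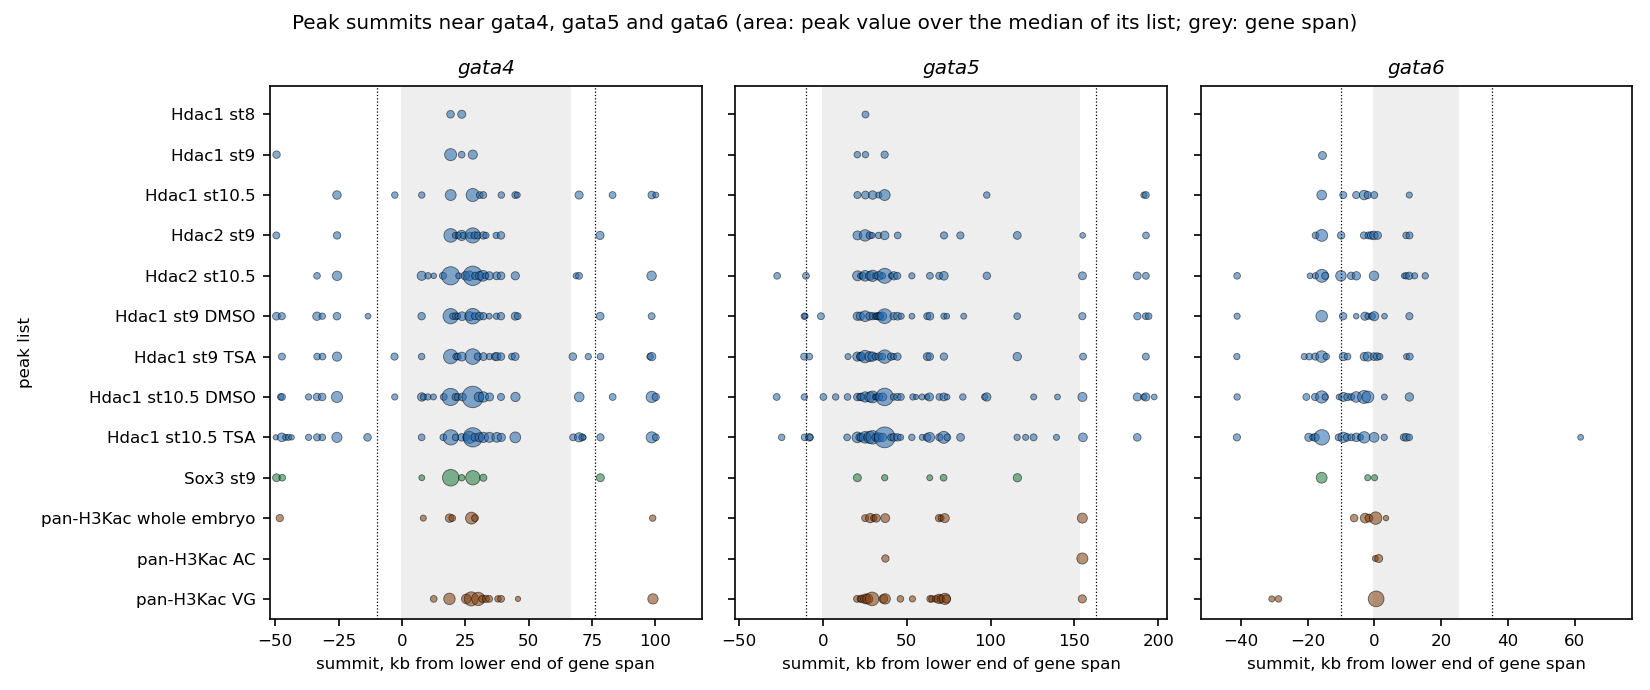
Peak summits of 13 lists near the 3 genes by distance in kb from the lower end of the gene span (grey); dot areas are the peak value over the median of its list, and dotted lines mark 10 kb on each side. Hdac1, Hdac2 and Sox3 dots line up at 19.2 and 27.9 kb in *gata4*, and acetylated H3 dots are many in VG and few in AC, with the broad *gata6* peak of VG shown by its summit alone.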

How the data were processed

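The deposited expected counts are the output of RSEM 1.3.3 after STAR 2.7.3a, not normalized, and the deposited TPM comes from the same program. Libraries held 16892304 to 54350327 counts. For peaks, the authors used Bowtie2 2.4.4, SAMtools 1.10 and MACS2 2.7.1 on the v10.0 genome. The deposited fold enrichment (a ratio to input) and −log10 q come from MACS2, and the deposited Sox3 score comes from the IDR tool. Hdac1 time course and Sox3 lists passed an IDR of 0.05. Explant second replicates of pan-H3Kac were downsampled to 25% by the authors. TSA explant lists of pan-H3Kac were not analysed here.

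Here, rounded expected counts were fitted in edgeR 4.0.16 (R 4.3.3) with TMM, filterByExpr and 4 group means per experiment, adjusting over all genes tested. The fit was tested on simulated data. Alternatives were DESeq2 1.42.0, RLE, other filters, 16 libraries together, ribosomal RNA genes removed, a replicate block and each library left out, and for peaks windows of 5 and 50 kb, −log10 q of 10 and any base. Genes outside the family were named where called, up to 4 per list, and the 3 most alike per member, save some that are not reported here; *foxa2* in VG was added after its values were seen. The members and lists were chosen with earlier results of these data known.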

Additional observations from a re-analysis of the deposited data

Results flagged for a closer look

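The inhibitor effect on *gata6* ran in opposite directions in the 2 explants: every treated AC library lay above both of its controls and every treated VG library below both of its own. The difference of the log2 effects was 1.89 with TSA and 2.56 with VPA. By edgeR's interaction contrast the adjusted p was 0.173 and 0.377, so neither passed the threshold, and the unadjusted p was 0.000625 and 0.000404. The result was flagged for the separation above, in these same libraries, so the unadjusted p is no separate support. How many of all genes are separated in this way was not counted, and with 2 libraries per group such separation can occur without an effect. Levels in AC were low beside those in VG (8.71 to 29.9 against 94.1 to 366 TPM), and the summed TPM of VG and mesoderm markers was above the controls in the same AC libraries, whose part in the difference was not tested.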

How the results depend on the processing

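Over 30 log2 changes and differences of the 3 genes and 495 alternatives, 469 kept direction and call, 17 became calls, 1 lost a call and 8 changed direction. RLE scaling and removal of ribosomal RNA genes changed none. With DESeq2 the changes that became calls were *gata5* with TSA in VG (−1.82), *gata6* with VPA in AC (1.35) and in VG (−1.20), and the *gata6* differences (1.83 with TSA and 2.54 with VPA). The VPA change of *gata6* in AC also became a call with no filter (1.37), at least 10 counts in every library (1.39) and all 16 libraries in one fit (1.37). At least 10 counts in every library turned *gata5* with VPA in AC from −0.01 to 0.013.

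Replicate numbers gave only 2 pairs a contrast. Deviations of same-numbered libraries correlated at 0.80 (AC) and 0.775 (VG) between treatments in the TSA experiment, at −0.0951 to −0.0509 between tissues, and at 0.461 to 0.631 in the VPA experiment. With the replicate number as a block the VPA changes of *gata6* in AC (1.37) and VG (−1.20), of *gata5* in VG (−1.70) and the *gata6* difference (2.57) became calls. A replicate block within each tissue, chosen after seeing the data, gave calls for *gata5* with TSA in VG (−1.83), *gata6* with VPA in AC (1.37) and VG (−1.21), and the *gata6* differences with TSA (1.90) and VPA (2.57).

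With single libraries left out, *gata4* in AC ran from −0.21 to 1.101 with TSA and from −0.78 to 0.40 with VPA, and *gata5* with VPA in AC from −0.98 to 0.59. The change of *gata5* with TSA in AC ran from −1.24 to −0.09 (without the second and the first AC TSA library), its difference with TSA from 0.57 to 1.74 (the same libraries) and with VPA from 0.60 to 2.68 (without the first AC and the first VG VPA library). The *gata4* differences ran from −0.074 to 1.24 (TSA) and from −0.22 to 0.96 (VPA). The AC to VG change of *gata5* with VPA ran from −5.52 to −3.43. A −log10 q of at least 10 lowered the summed peak counts of the 3 genes from 32 to 7 (Hdac2, st9), 46 to 24 (Hdac2, st10.5), 48 to 15 and 46 to 15 (Hdac1 with DMSO and TSA, st9), and 56 to 28 and 62 to 25 (the same, st10.5).

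Counts of called genes over all genes depended most on the fit. TSA in AC called 350 genes in edgeR, 951 in DESeq2, 585 with 16 libraries, 1674 with the replicate block within tissues, 2 without the libraries rich in ribosomal RNA, and 31 to 153 with 1 library left out. TSA in VG called 2, then 202 (DESeq2), 23 (no filter), 1 (at least 10 counts), 17 (16 libraries), 0 (block), 263 (block within tissues) and 0 to 1 (1 library left out). VPA in AC called 319, then 899 (DESeq2), 537 (no filter), 996 (block), 823 (block within tissues) and 1 to 97 (1 library left out). VPA in VG called 0, then 359 (DESeq2), 73 (no filter), 34 (16 libraries), 241 (block) and 26 (block within tissues). The difference between tissues called 13 with TSA, then 225 (DESeq2), 38 (no filter), 28 (16 libraries), 20 (block), 1146 (block within tissues) and 0 to 8 (1 library left out), and 1 with VPA, then 123, 4, 2, 19, 3 and 0 to 3. AC against VG called 3311 genes with DMSO and 3117 with TSA, against 5271 and 5121 with the block within tissues, and with 1 library left out 1753 to 3235 (DMSO), 1408 to 3125 (TSA), 1173 to 2191 (water, 2266 in full) and 1036 to 1789 (VPA, 1935 in full). With 1 library left out its group keeps 1, assumed to vary like the rest. AC levels of *gata4* and *gata5* rest on 12 to 141 counts, which limits their changes there. The cause of the other shifts was not tested.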
